A study of Mus musculus with 18 samples.

Results

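Tumour necrosis factor (TNF) was given alone to mouse macrophages for 4 h, and the accessible chromatin of these cells was set against that of cells left in medium. The TNF group, written MT, comprised 2 libraries of cells kept 4 h in medium and then 4 h with TNF at 10 ng/mL. The medium group, written MM, comprised 2 libraries of cells kept in medium for both periods. These 4 libraries are all the MT and MM libraries among the 18 of the series, and all 53796 regions measured were compared. Another 2 groups of 2 libraries each served for direct comparisons at the same time point: ML, in which medium was followed by 4 h of LPS (1 ng/mL), and MC, in which medium was followed by 4 h of CpG (100 nM). The spread in every comparison was estimated over 8 groups (16 libraries). Besides those named, these were cells given CpG for 4 h or polyI:C (1 µg/mL) for 4 h, and then LPS or TNF for 4 h. CpG, LPS and TNF had the same doses there. All cells were macrophages grown out of the bone marrow of wild-type C57BL/6 mice aged 6 to 12 weeks, cultured with M-CSF at 20 ng/mL and replated on day 7. Open chromatin was mapped by ATAC-seq on nuclei of 50000 cells per library, a method that relies on a transposase to cut and tag accessible DNA. The labels name no separate mice or cultures behind the 2 libraries of a group, so a p-value here reflects the spread between libraries, which may be technical.

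TNF is a cytokine that macrophages both release and sense. It binds the receptors encoded by Tnfrsf1a and Tnfrsf1b, and the adaptor and ubiquitin ligase proteins that assemble on the receptor activate the IkB kinase complex. IkB proteins are then degraded and NF-kB dimers enter the nucleus, where their targets include genes for their own inhibitors, such as Nfkbia, Tnfaip3 and Tnip1. LPS and CpG reach NF-kB through Toll-like receptors 4 and 9, LPS also through an adaptor that leads to type I interferon.

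Promoters that opened with TNF are shown first, because they belong to genes discussed below and let those with and without an NF-kB sequence be compared. The 250 bases before each gene start were taken from RefSeq (GRCm38.p6). Shown are promoters from a list of 32 inflammatory and macrophage genes that lay by at least 150 bases under a region higher in MT than in MM. They are written 5′ to 3′ on the gene's strand and end at the base before the start. Capitals mark matches to the NF-kB consensus on either strand, with overlapping matches merged into one run.
Nfkbia (chr12:55492648-55492897, minus strand): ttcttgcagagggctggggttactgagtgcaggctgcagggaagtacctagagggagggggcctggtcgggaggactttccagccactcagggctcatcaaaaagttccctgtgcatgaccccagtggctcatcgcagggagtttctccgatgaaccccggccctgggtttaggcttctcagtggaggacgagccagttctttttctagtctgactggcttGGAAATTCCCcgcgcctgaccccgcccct
Tnip1 (chr11:54962941-54963190, minus strand): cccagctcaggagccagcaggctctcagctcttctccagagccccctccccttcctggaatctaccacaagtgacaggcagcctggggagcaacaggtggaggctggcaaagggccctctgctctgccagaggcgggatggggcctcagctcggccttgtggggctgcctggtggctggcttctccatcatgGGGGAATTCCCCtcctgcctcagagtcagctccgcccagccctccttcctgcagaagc
Cxcl10 (chr5:92348890-92349139, minus strand): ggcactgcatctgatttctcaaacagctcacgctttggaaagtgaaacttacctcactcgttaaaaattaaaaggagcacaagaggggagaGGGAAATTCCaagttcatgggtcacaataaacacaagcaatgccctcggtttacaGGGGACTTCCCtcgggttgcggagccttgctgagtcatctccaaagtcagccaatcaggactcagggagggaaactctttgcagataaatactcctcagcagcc
Cxcl2 (chr5:90903649-90903898, plus strand): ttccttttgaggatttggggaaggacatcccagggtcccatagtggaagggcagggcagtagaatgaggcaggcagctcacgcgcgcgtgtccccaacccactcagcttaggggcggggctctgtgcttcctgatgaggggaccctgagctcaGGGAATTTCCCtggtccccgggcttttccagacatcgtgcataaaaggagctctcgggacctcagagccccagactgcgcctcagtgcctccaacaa
Tnf (chr17:35202008-35202257, minus strand): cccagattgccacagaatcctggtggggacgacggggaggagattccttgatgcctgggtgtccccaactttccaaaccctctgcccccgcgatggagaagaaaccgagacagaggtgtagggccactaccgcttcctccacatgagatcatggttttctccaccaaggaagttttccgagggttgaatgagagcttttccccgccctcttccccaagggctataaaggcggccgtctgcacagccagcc
Acod1 (chr14:103046762-103047011, plus strand): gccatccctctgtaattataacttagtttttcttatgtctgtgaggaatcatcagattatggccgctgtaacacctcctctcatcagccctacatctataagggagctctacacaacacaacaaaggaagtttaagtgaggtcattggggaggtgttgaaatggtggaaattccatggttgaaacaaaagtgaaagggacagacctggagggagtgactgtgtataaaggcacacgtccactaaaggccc

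The window of Nfkbia, which encodes the inhibitor IkB alpha, held 1 match, at 20 to 29 bases before the start. That of Tnip1, which encodes a partner of the deubiquitinase A20, held 3 overlapping matches, and those of the chemokine genes Cxcl10 and Cxcl2 held 3 and 2. No match lay in the windows of Tnf and of Acod1, the gene of the itaconate-producing enzyme. An alternative start of Tnfaip3 also met the rule and is not shown, because the call of its region (0.91, adjusted p = 0.0181) was lost without MT replicate 1, without MT replicate 2 and without MM replicate 1, in the last case with a difference of 0.53 (adjusted p = 0.371).

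Over all genes, 84 promoter windows of 76 genes lay under regions higher in MT, and 19 of them (22.6%) held the NF-kB consensus. Among the 9849 windows under any region the share was 9.23%, and among all 32851 windows in the table it was 7.25%. The AP-1 motif TGANTCA was found in 16 of the 84 windows (19%), against 4.52% of windows under any region. The macrophage factor PU.1 core GAGGAAGT was found in 9.52% against 3.12%, and the core of the interferon-stimulated response element in 7.14% against 2.73%. Under the regions lower in MT, 1 of 21 windows (4.76%) held the NF-kB consensus. The core of the interferon-stimulated response element was in 2 of the 21 (9.52%), a share above that under higher regions. The AP-1 motif and the PU.1 core were in 0. Both strands were searched and matches of different motifs could overlap. Windows of the same gene or of neighbouring genes could also overlap, as at Tank and at Zfp84 with Gm38983, so a match may count more than once. These shares are descriptions without a test.

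Reads in the regions numbered 5986835 and 3936304 in the MT libraries and 5695271 and 3141641 in the MM libraries, within a range of 3141641 to 5986835 over the series. Across regions, the log2 values of the 2 MT libraries correlated at 0.965 and those of the 2 MM libraries at 0.967. All 8 macrophage marker genes checked, among them Spi1, Itgam, Cd68 and Mertk, had regions. The most open region of each had a mean between 4.05 and 6.23 log2 CPM in MT and between 4.26 and 6.29 in MM. No region was assigned to Cd3e, Cd3g, Cd8a, Cd79a, Pax5, Elane, Clec9a, Gata1, Hbb-bs, Col1a1 or Pdgfra, which mark other cell types. Other such markers did have regions, some as open as those of macrophage genes. The most open region had a mean of 5.62 in MT and 5.71 in MM at Cdh5, an endothelial marker, 5.28 and 5.18 at Flt3 and 4.74 and 4.40 at Xcr1, both dendritic cell markers, and 4.39 and 4.20 at S100a8, a neutrophil marker. The part of such cells in the results was not tested.

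The comparison of TNF alone with medium asks which regions open or close with this cytokine. Most of the called regions were more open with TNF. Of 53796 regions, 3111 (5.78%) were higher in MT and 310 (0.576%) were lower (6.36% in either direction), at an adjusted p under 0.05 from limma with Benjamini-Hochberg adjustment over all regions. Values are in log2 CPM (reads in regions, scaled to library size), and differences are MT minus MM on that scale ± SE, with 2 libraries per group. The median difference was 0.94 over the higher regions and -0.75 over the lower ones, against -0.01 over all regions. At least a 2-fold difference (1 on the log2 scale) was reached by 1324 of the higher and 49 of the lower regions, and at least 4-fold by 51 of the higher regions. The largest rise was 2.80 and the largest fall -1.45. Both MT libraries lay above both MM libraries in 3108 of the 3111 higher regions and below them in all 310 lower regions. Over all regions, whether called or not, the 2 groups did not overlap in 46.7%. Higher regions were assigned to 1976 of 13771 genes.

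**Figure D1:**
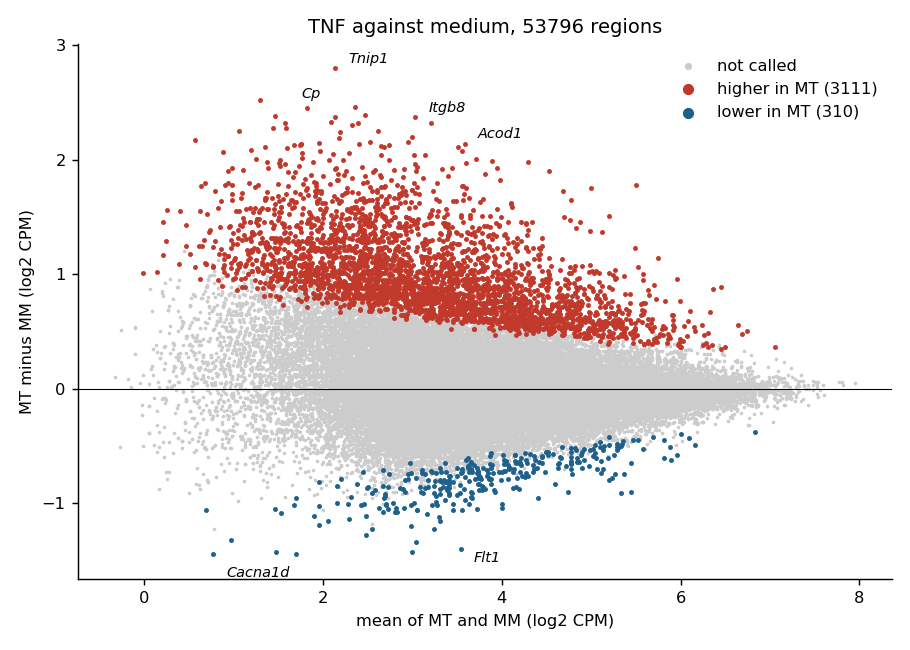
Difference between TNF and medium (MT minus MM, log2 CPM, vertical axis) against the mean of both groups (log2 CPM, horizontal axis) for all 53796 regions. Red points are the 3111 regions called higher in MT, blue points the 310 called lower and grey points those not called, and the largest rise, 2.80, lay in Tnip1.

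The regions that rose had a lower median level in medium than all regions together. Their median was 3.58 in MT and 2.58 in MM, while the median over all regions was 3.68 in both groups. Regions that fell had a median of 3.36 in MT and 4.16 in MM. Both sets were called with these same MM values, so their levels in medium were in part set by the selection. Without MT replicate 1 the counts were 1924 higher and 180 lower, and without MT replicate 2 they were 1923 and 111. Without MM replicate 1 they were 2394 and 119, and without MM replicate 2 they were 1939 and 74. Quantile normalization gave 1687 and 112. A bulk library cannot tell a change in every cell from a change in the share of cells with open chromatin.

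Rises were less frequent at gene ends than elsewhere, a description without a test. Of the 13379 regions within 1 kb of a gene end, 238 (1.78%) rose. The share was 6.81% of the 23135 regions inside genes, 7.34% of the 12326 between genes and 7.93% of the 4956 more than 50 kb from any protein-coding gene. Falls made up 0.321% of regions at gene ends and 0.565% to 0.726% elsewhere. When regions were split into 10 equal groups by mean level, between 4.39% and 7.05% rose, the least in the most open group.

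The shares of the gene lists below stand against 5.78% higher and 0.576% lower over all regions, with a median difference of -0.01. Their counts without 1 library stand beside the fall over all regions given above. NF-kB subunit genes opened at a few sites. A region inside Nfkb1, which encodes p105 and its product p50, had 2.54 and 3.07 log2 CPM in the MT libraries, against 0.58 and 0.90 in the MM libraries (chr3:135640212-135640713). The MT libraries were far above the MM libraries there, with a difference of 2.06 ± 0.19 (adjusted p = 1.18e-09). Nfkb1 had 21 regions, of which 4 rose and 1 fell. A region inside Rel, which encodes c-Rel, had 4.06 and 3.74 in MT and 2.93 and 2.91 in MM, a difference of 0.98 ± 0.18 (adjusted p = 2.89e-04). Of the 38 regions of all 5 subunit genes, 6 rose (15.8%) and 1 fell, with a median difference of 0.12. None of the 3 regions of Rela and none of the 3 of Nfkb2 was called. Without 1 library, 3 to 5 of the 38 regions were higher.

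Genes that restrain NF-kB had 43 of 164 regions higher (26.2%) and 2 lower, with a median difference of 0.24. The rises were spread over 14 of 19 genes. The largest rise of any gene lay 8.7 kb inside Tnip1 (chr11:54953981-54954482), with 3.54 in both MT libraries and 0.58 and 0.90 in the MM libraries. Its difference was 2.80 ± 0.22 (adjusted p = 5.53e-11), and the groups were far apart. The promoter of Tnip1 (chr11:54962746-54963247), whose sequence is given above, had 4.17 and 4.56 in MT and 2.79 and 3.13 in MM. It rose by 1.41 ± 0.19 (adjusted p = 1.59e-06), with no overlap between the groups. The promoter of Nfkbia (chr12:55492523-55493024) had 6.66 and 6.24 in MT and was already open in MM, at 5.54 and 5.43. That difference was 0.96 ± 0.13 (adjusted p = 3.56e-06).

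Tnfaip3, which encodes A20, opened inside the gene rather than at its outermost start. A region 5.9 kb downstream of that start (chr10:19009300-19009801) had 5.47 and 5.42 in MT and 4.14 and 3.75 in MM, a difference of 1.50 ± 0.15 (adjusted p = 1.03e-08). The region over the start had 5.32 and 5.09 in MT, little above the 5.02 and 5.04 in MM (0.18 ± 0.14, adjusted p = 0.608). N4bp1, whose product restrains NF-kB signalling, had a region inside the gene (chr8:86878490-86878991) at 4.18 and 4.14 in MT and 2.21 and 2.02 in MM. It rose by 2.04 ± 0.16 (adjusted p = 4.56e-11). Socs3, an inhibitor of cytokine receptor signalling, had a region 8.7 kb upstream (chr11:117977793-117978294) with 4.24 and 3.97 in MT and 1.77 and 2.02 in MM. The MT libraries lay well above the MM libraries, and the difference was 2.20 ± 0.19 (adjusted p = 5.58e-10). Nfkbiz, which encodes the nuclear IkB zeta, rose by 1.08 ± 0.12 at a region within 1 kb of a gene end (adjusted p = 1.01e-07). Socs1, Nfkbib, Nfkbid and Tax1bp1 had 5, 2, 2 and 5 regions, none of them called.

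**Figure D2:**
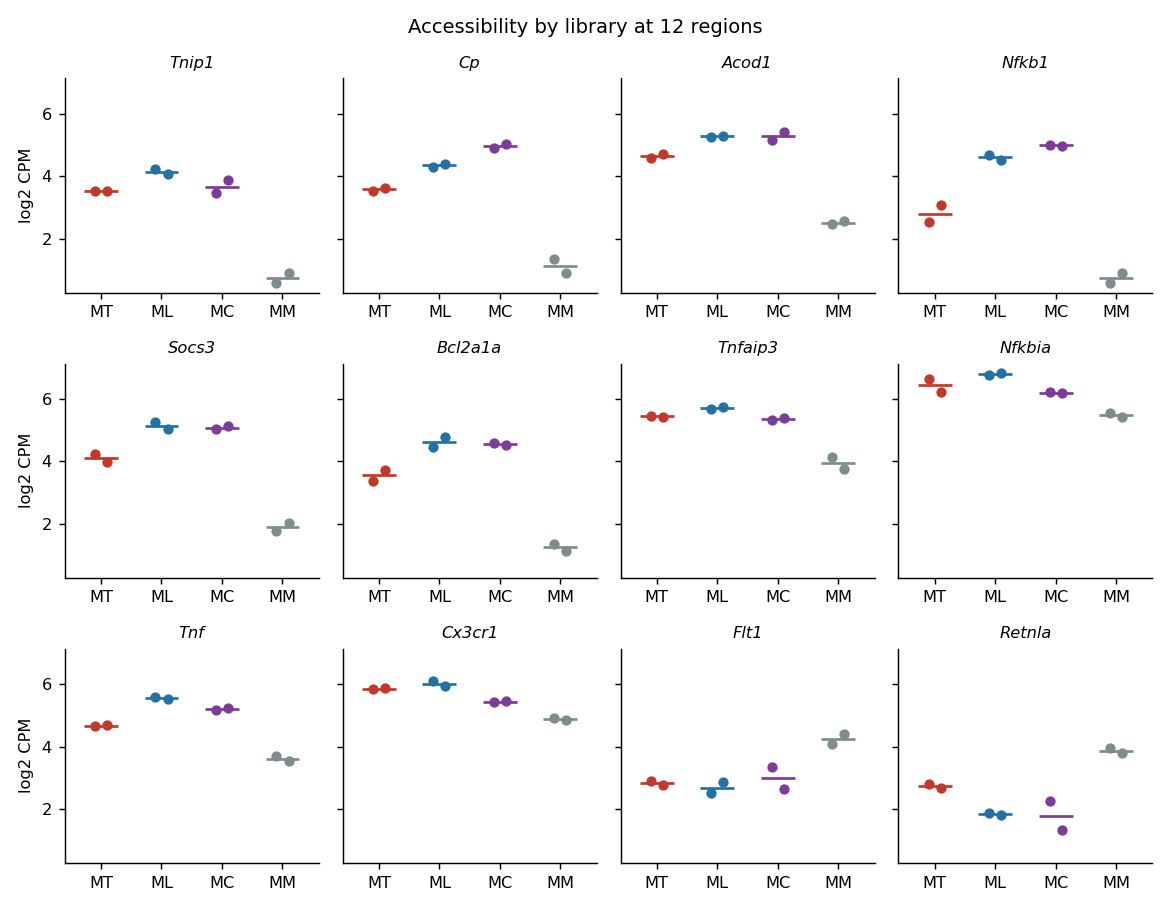
Accessibility (log2 CPM, vertical axis) of each library at 12 regions, with the groups MT (TNF), ML (LPS), MC (CpG) and MM (medium) along the horizontal axis; points are single libraries and lines are group means of 2. Regions were picked by the smallest p in MT against MM or, for Acod1, Nfkbia and Tnf, by nearness to the start. At the first 10 regions both MT libraries lie above both MM libraries, and at Flt1 and Retnla both lie below. This separation was in part set by the selection, and the 2 groups did not overlap in 46.7% of all regions. The Retnla call was lost whichever library was left out.

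Among 27 genes of the TNF receptor pathway with regions, 19 of 128 regions rose (14.8%) and none fell, with a median difference of 0.05. The 2 receptor genes are given first. Tnfrsf1b, which encodes TNF receptor 2, had a region 5.9 kb upstream (chr4:145252507-145253008) with 3.43 and 3.57 in MT and 2.10 and 2.23 in MM. This region rose by 1.34 ± 0.19 (adjusted p = 7.90e-06). No region of Tnfrsf1a, the gene of TNF receptor 1, was called, and the 4 regions included the start with 3.62 and 3.92 in MT and 4.02 and 3.78 in MM. The adaptor gene Traf2 had a region inside the gene (chr2:25534166-25534667) with 3.98 and 3.66 in MT and 2.04 and 1.91 in MM, a difference of 1.85 ± 0.19 (adjusted p = 1.24e-08). Birc3, a ubiquitin ligase gene of the receptor complex, rose at its start by 0.89 ± 0.10 (adjusted p = 3.51e-08), at 6.83 and 6.97 in MT and 6.08 and 5.95 in MM. Cflar, which encodes an inhibitor of caspase 8, rose by 1.13 ± 0.18 (adjusted p = 2.83e-05) at a region inside the gene. Regions of Ripk1, Fadd, Casp8, Ikbkb and Map3k7 were not called. Without 1 library, 12 to 15 of the 128 were higher, and quantile normalization gave 11.

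Of 104 regions of 22 genes of the TNF family and interleukins, 14 rose (13.5%) and none fell, with a median difference of 0.22. The rises lay in 9 genes, with 3 of 5 regions of Il1a, 3 of 6 of Il1rn, the gene of the interleukin 1 receptor antagonist, and 2 of 5 of Lif. The Tnf promoter (chr17:35201892-35202393) had 4.67 and 4.68 in MT and 3.70 and 3.53 in MM. The groups were clearly apart, with a difference of 1.06 ± 0.16 (adjusted p = 1.56e-05). Il1a had a region 1.8 kb upstream (chr2:129311493-129311994) with 1.92 and 2.43 in MT and 0.58 and 0.90 in MM, a difference of 1.43 ± 0.24 (adjusted p = 5.44e-05). Tnfsf15, a TNF family ligand gene, rose by 1.03 ± 0.17 at its start (adjusted p = 7.58e-05). None of the 9 regions of Il12b, which encodes a subunit of interleukins 12 and 23, was called, nor the start of Il6 with 3.70 and 3.77 in MT and 3.54 and 3.68 in MM. A distal Il6 region 40.1 kb upstream was higher by 1.04 ± 0.26 (adjusted p = 0.00841), a call lost without MT replicate 1 (1.00, adjusted p = 0.073) and without MM replicate 1 (0.76, adjusted p = 0.171). Without 1 library, 7 to 11 of the 104 regions were higher, and quantile normalization gave 6.

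Chemokine genes had 8 of 64 regions higher (12.5%), 1 in each of 8 genes, and none lower, with a median difference of 0.02. At the promoter of Cxcl2, a neutrophil attractant (chr5:90903426-90903927), the MT libraries had 6.31 and 6.33 and the MM libraries 5.10 and 5.27. This very open region rose by 1.14 ± 0.11 (adjusted p = 5.31e-09). The promoter of Cxcl10, a T cell attractant (chr5:92348709-92349210), had 4.63 and 4.69 in MT and 3.67 and 3.37 in MM, also a difference of 1.14, with an SE of 0.15 (adjusted p = 1.25e-06). A region 2.4 kb upstream of Ccl9 rose by 1.69 ± 0.21 (adjusted p = 3.43e-07). Ccl5 rose by 1.26 ± 0.20 at a region between genes (adjusted p = 3.66e-05), while its region within 1 kb of a gene end was not called, at 0.70 and 1.08 in MT and 0.88 and 0.31 in MM. None of the 4 regions of Ccl3 and the 7 of Ccl4 was called.

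Inflammatory effector genes had a share close to that of the NF-kB inhibitors, with 30 of 113 regions higher (26.5%) in 15 of 23 genes and none lower, and a median difference of 0.31. The promoter of Acod1 (chr14:103046654-103047155) had 4.60 and 4.71 in MT and 2.46 and 2.57 in MM. It rose by 2.14 ± 0.14 (adjusted p = 1.34e-12), one of the 51 rises of at least 4-fold. Cp, which encodes the copper-carrying plasma protein ceruloplasmin, rose by 2.46 ± 0.18 at a region 2.9 kb upstream (chr3:19953860-19954361; adjusted p = 2.06e-11). That region had 3.54 and 3.63 in MT and 1.35 and 0.90 in MM, whereas the Cp start had 1.99 and 1.95 in MT and 2.10 and 1.49 in MM and was not called. A region assigned to Ptges, a prostaglandin E synthase gene, had 5.12 and 4.65 in MT and 3.12 and 3.02 in MM, a difference of 1.82 ± 0.19 (adjusted p = 2.59e-08). Mmp14, a matrix metalloproteinase gene, rose by 1.46 ± 0.14 (adjusted p = 6.06e-09), and Icam1, an adhesion molecule gene, by 1.82 ± 0.25 at a region inside the gene (adjusted p = 2.05e-06). The scavenger receptor gene Marco had 5 of 11 regions higher, and the nitric oxide synthase gene Nos2 2 of 5. The only region of Lcn2, a siderophore-binding protein gene named here after its values were seen, had 0.54 and 0.90 in MT and 0.19 and 0.64 in MM and was not called.

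Interferon-stimulated genes had a share of called regions not far from that of all regions. Of their 162 regions at 45 genes, 6 rose (3.7%, against 5.78% of all regions) and 1 fell. The median difference was -0.02, and 3 to 6 were higher without 1 library. None of the regions of Rsad2, Usp18, Irf7, Isg15, Ifit2 or Ifit3 was called. At the start of Ifit3 the MT libraries had 3.32 and 3.23 and the MM libraries 2.93 and 2.97 (0.33 ± 0.18, adjusted p = 0.386). Among those that rose was Gbp2, a guanylate-binding protein gene, by 1.04 ± 0.15 at its start (adjusted p = 4.62e-06), with 5.19 and 5.17 in MT and 3.97 and 4.30 in MM. The AP-1 and immediate early genes had 9 of 207 regions higher (4.35%), none lower and a median of -0.01, with 4 to 8 higher without 1 library. One of the 9 lay 39.9 kb downstream of the Fos start and had 3.84 and 3.63 in MT and 1.84 and 1.13 in MM (2.25 ± 0.27, adjusted p = 2.19e-07). The Fos start itself was not called (-0.05 ± 0.21, adjusted p = 0.954).

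**Figure D3:**
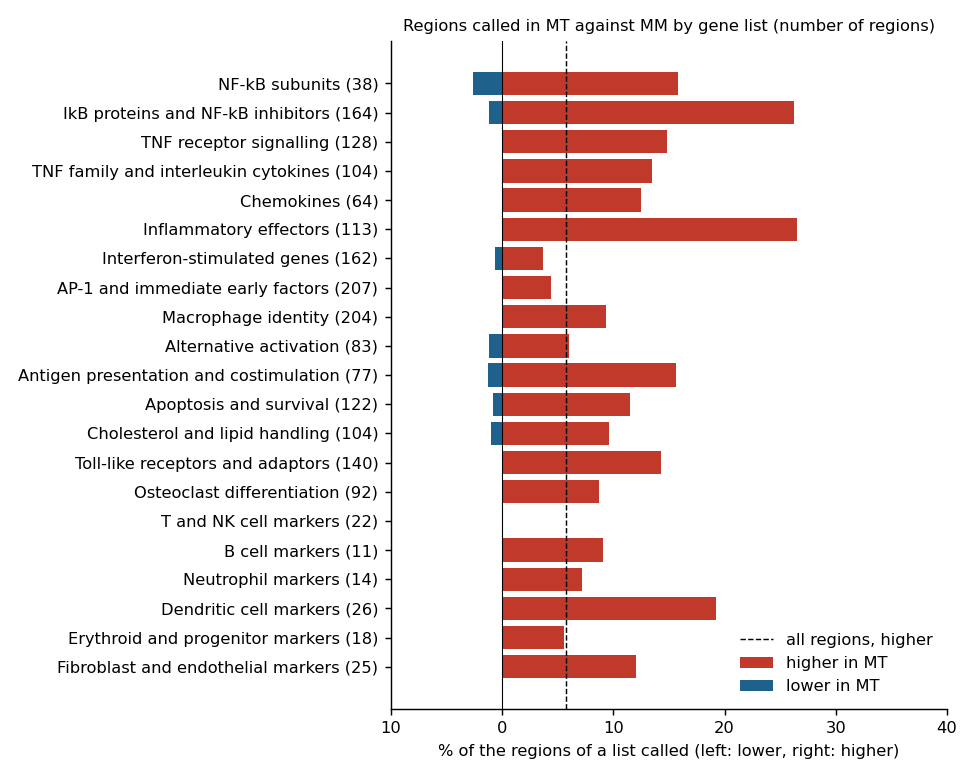
Share of the regions of each gene list that was called in MT against MM (horizontal axis, percent; red bars to the right higher, blue bars to the left lower), with the number of regions in parentheses. The dashed line marks the 5.78% of all regions that were higher, and the bars of inflammatory effectors (26.5%) and NF-kB inhibitors (26.2%) reach farthest past it.

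Toll-like receptor and adaptor genes had 20 of 140 regions higher (14.3%), none lower and a median of 0.09, with 12 to 17 higher without 1 library. Irak2, which encodes a kinase of the receptor complex, held 6 of these among its 17 regions. Ripk2, a kinase gene of the NOD pathway, rose by 1.94 ± 0.19 (adjusted p = 6.69e-09), and the intracellular peptidoglycan sensor gene Nod2 by 1.69 ± 0.21 (adjusted p = 3.35e-07). The start of Tlr2 had 5.46 and 5.25 in MT and 4.61 and 4.55 in MM, a difference of 0.78 ± 0.13 (adjusted p = 8.23e-05). No region of Tlr4, Tlr3, Tlr9 or Myd88 was called.

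Antigen presentation and costimulation genes had 12 of 77 regions higher (15.6%) and 1 lower, with a median of 0.18, though without 1 library the count was 4 to 8. Tnfsf4, which encodes OX40 ligand, rose by 1.47 ± 0.22 (adjusted p = 1.10e-05), and Ciita, the class II transactivator gene, by 1.24 ± 0.20 (adjusted p = 4.08e-05). Apoptosis and survival genes had 14 of 122 higher (11.5%) and 1 lower, with a median of 0.06, and 6 to 11 higher without 1 library. A region inside Bcl2a1a, a survival gene of the BCL2 family (chr9:88960066-88960567), had 3.37 and 3.74 in MT and 1.35 and 1.13 in MM. It rose by 2.32 ± 0.18 (adjusted p = 7.52e-11), but near-identical copies of this gene exist and reads may have been split between them. The start of Fas, a death receptor gene, had 5.23 and 5.25 in MT and 4.12 and 4.10 in MM, a difference of 1.13 ± 0.13 (adjusted p = 2.19e-07).

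Macrophage identity genes had 19 of 204 regions higher (9.31%), none lower and a median of 0.01, with 12 to 16 higher without 1 library. Over all regions the share was 5.78%, with a median of -0.01. Lyn, a Src family kinase gene with 21 regions, held 7 of the 19 higher regions, and the transcription factor genes Zeb2 and Mitf held 3 each. A region assigned to Cx3cr1, the fractalkine receptor gene, had 5.85 and 5.87 in MT and 4.91 and 4.86 in MM (0.98 ± 0.12, adjusted p = 7.32e-07). No region of Maf, Cebpa, Irf8 or Runx1 was called. Alternative activation genes had 5 of 83 regions higher (6.02%) and 1 lower, close to the shares of all regions. Mrc1, the mannose receptor gene, rose by 1.85 ± 0.26 at a region inside the gene (adjusted p = 3.97e-06). The 1 region of Retnla, which encodes a secreted protein of alternatively activated macrophages, had 2.80 and 2.67 in MT and 3.94 and 3.78 in MM. It was lower by -1.12 ± 0.32 (adjusted p = 0.0244), a call lost whichever library was left out (adjusted p = 0.098 to 0.168). Cholesterol and lipid genes had 10 of 104 higher (9.62%) and 1 lower, with a median of 0.03, and 5 to 7 higher without 1 library. Osteoclast differentiation genes had 8 of 92 higher (8.7%) and none lower, with 3 to 7 higher without 1 library. The kinase gene Src was one of them, at 4.97 and 4.84 in MT and 3.23 and 3.37 in MM (1.61 ± 0.14, adjusted p = 5.58e-10), whereas none of the 9 regions of the osteoclast factor gene Nfatc1 was called. The shares of the lipid and osteoclast lists stand against the same 5.78% of all regions.

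Among markers of other cell types, none of 22 T and NK cell marker regions was called and no list had a lower region. Higher were 1 of 11 B cell (9.09%), 1 of 14 neutrophil (7.14%), 1 of 18 erythroid and progenitor (5.56%) and 3 of 25 fibroblast and endothelial marker regions (12%), against 5.78% of all regions. Without 1 library, 0 to 3 of the fibroblast and endothelial regions were higher. Dendritic cell markers had 5 of 26 regions higher (19.2%), and 3 to 5 without 1 library. They included Ccr7, a chemokine receptor gene, at 1.84 ± 0.19 (adjusted p = 1.80e-08), and the transcription factor gene Zbtb46 at 1.39 ± 0.19 (adjusted p = 1.94e-06). Xcr1 had 2 regions, neither of them called, and Clec9a had none.

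Other large rises lay outside the lists. A region inside Itgb8, an integrin subunit gene (chr12:119164077-119164578), had 4.14 and 4.30 in MT and 2.21 and 1.49 in MM (2.37 ± 0.20, adjusted p = 2.77e-10). Regions assigned to Ccdc88b, Tmem123, Adgb, Pkd1l1, Sirt6 and Rnf180 rose by 2.32 to 2.45. Some of the largest rises were more than 50 kb from any protein-coding gene. The largest of these were 2.52 ± 0.25, 87.0 kb from Ly86, and 2.33 ± 0.23, 74.1 kb from Tmem212. The next lay 62.6 kb from Tnfaip3 (chr10:19078029-19078530), with 3.74 and 3.23 in MT and 1.24 and 1.13 in MM, a difference of 2.30 ± 0.21 (adjusted p = 8.51e-10). Another lay 89.4 kb from Ptgs2, the cyclooxygenase 2 gene (chr1:150197616-150198117), with 4.48 and 4.65 in MT and 2.51 and 2.41 in MM, a difference of 2.11 ± 0.13 (adjusted p = 5.16e-13). One more lay 56.0 kb from the chemokine gene Cxcl5 and rose by 2.13 ± 0.22 (adjusted p = 1.19e-08). Others nearest to Zfat, Agr3 and Acvr2a rose by 2.17, 2.13 and 1.97. All these distal regions were chosen after their values were seen, and distance alone does not say which gene such a region serves.

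Falls were smaller and their calls less stable. A region inside Cacna1d, a calcium channel gene, had -0.07 and 0.16 in MT and 1.35 and 1.64 in MM (-1.45 ± 0.26, adjusted p = 1.52e-04), and it kept its call without any 1 library. A region inside Flt1, the gene of VEGF receptor 1 (chr5:147574515-147575016), had 2.90 and 2.78 in MT and 4.08 and 4.41 in MM, a difference of -1.40 ± 0.27 (adjusted p = 4.28e-04). Gpt2, which encodes an alanine aminotransferase, was lower by -1.20 ± 0.24 (adjusted p = 8.29e-04), with 2.36 and 2.43 in MT and 3.54 and 3.64 in MM. A fall inside Zfp800 of -1.45 ± 0.33 (adjusted p = 0.00384) rested on MT replicate 2, which had 0.16 against 1.79 in MT replicate 1 and 2.37 and 2.49 in MM. Without that library the difference was -0.64 (adjusted p = 0.395), and without MM replicate 2 it was -1.39 (adjusted p = 0.0573).

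Some genes gathered many called regions. Lpp, which encodes a protein of cell adhesion sites, had 9 of 49 regions higher, and Pde4b, a phosphodiesterase gene that breaks down cyclic AMP, had 8 of 26. The strongest Pde4b region (chr4:102624043-102624544) had 6.35 and 6.43 in MT and 4.55 and 4.68 in MM, a difference of 1.78 ± 0.11 (adjusted p = 4.69e-13). In Nfkbia, Irak2, Hivep3, Nrp2 and Ptpre, 6 regions each rose, out of 15, 17, 27, 25 and 30. The median differences of these genes were 0.53, 0.57, 0.28, 0.1 and 0.07. Of all regions, 5.78% rose. The genes were picked for their number of called regions, which favours genes with many regions.

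The TNF response was then tested directly against the responses to LPS and CpG at the same 4 h. These differences compare the MT means with the ML and MC means. As for MT against MM, their spread comes from the fit of all 8 groups. Against ML, 661 regions (1.23%) were higher in MT and 1684 (3.13%) lower, and 48 and 694 of these differed at least 2-fold. Against MC, 2347 regions (4.36%) were higher in MT and 5086 (9.45%) lower, and 344 and 2294 of these differed at least 2-fold. Without 1 library the counts against ML were 34 to 374 higher and 505 to 1268 lower, and those against MC were 1037 to 1160 higher and 3004 to 3428 lower. The split against ML was also moved by other settings, given in the closing section, while more regions were lower than higher in each of them.

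Most regions that TNF opened were not called different under LPS, but a larger share of them than of all regions was lower in MT. Of the 3111 regions higher in MT than in MM, 529 (17%) were lower in MT than in ML, against 3.13% of all regions. Higher were 7 (0.225%, against 1.23%), and 2575 were not called, with a median difference of -0.28. Against MC, 805 (25.9%) were lower in MT, against 9.45% of all regions. Higher were 230 (7.39%, against 4.36%), and 2076 were not called, with a median of -0.18. These regions were picked for high MT values, so the counts share the MT libraries with the selection and are descriptions. The 7 that were higher in MT than in ML differed by 0.45 to 0.97. The largest difference, 0.97, and another of 0.77 lay more than 50 kb from any protein-coding gene. The others lay inside Cd226 (0.91), Ptprm (0.60) and Pign (0.59) and between genes, assigned to Thbd (0.72), the thrombomodulin gene, and Hspa13 (0.45). Regions not called in MT against MM were lower in MT than in ML in 1142 of 50375 cases and higher in 642.

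The Tnf promoter had 4.67 and 4.68 in MT, below 5.60 and 5.54 in ML, a difference of -0.89 ± 0.16 (adjusted p = 5.35e-04). The Nfkb1 region named above had 2.54 and 3.07 in MT, 4.70 and 4.51 in ML and 5.02 and 4.97 in MC, so that TNF opened it to a level between medium and the Toll-like receptor ligands (MT minus ML -1.80 ± 0.19, adjusted p = 5.12e-08). The Il1a region stood at 1.92 and 2.43 in MT and 3.70 and 3.61 in ML (-1.48, adjusted p = 1.03e-04). Other regions were not called different from ML. The Tnip1 promoter had 4.17 and 4.56 in MT and 4.45 and 4.34 in ML (-0.03, adjusted p = 0.95), the Birc3 start 6.83 and 6.97 in MT and 6.97 and 6.92 in ML (-0.05, adjusted p = 0.826), and the strongest Pde4b region 6.35 and 6.43 in MT and 6.62 and 6.74 in ML (-0.29, adjusted p = 0.129). A p above the threshold does not show that such levels are equal.

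Some regions were much less open with TNF than with LPS or CpG. A distal region 9.8 kb upstream of Il12b (chr11:44389981-44390482) had 4.69 and 4.72 in MT, against 6.11 and 6.03 in ML and 6.50 and 6.44 in MC (MT minus ML -1.36 ± 0.12, adjusted p = 2.50e-09). The Lcn2 promoter had 0.54 and 0.90 in MT, against 3.59 and 3.17 in ML and 3.72 and 4.26 in MC (MT minus ML -2.66, adjusted p = 2.77e-06). The largest differences by the naming rule were a region assigned to Uaca, with 1.09 and 0.16 in MT and 3.95 and 4.03 in ML (-3.36, adjusted p = 5.58e-11), and one assigned to Ms4a6d (-2.81, adjusted p = 6.05e-07). A region inside Pdss1 had 2.69 and 2.61 in MT, 5.20 and 5.43 in ML and 6.12 and 6.24 in MC (MT minus ML -2.67 ± 0.14, adjusted p = 3.38e-15). Against MC, regions inside Slc1a2 and Abcc4 were lower in MT by -4.08 and -4.07. The regions of Uaca, Ms4a6d, Pdss1, Slc1a2 and Abcc4 were not called in MT against MM. Their differences from medium were -0.2, -0.08, -0.25, -0.19 and -0.27. In the other direction, a region inside Stac had means of 3.77 in MT, 2.53 in ML and 3.95 in MM. One near the start of Ltbp1 had means of 3.05 in MT, 1.76 in ML and 2.95 in MM. Neither was called in MT against MM, and they were higher in MT than in ML by 1.24 and 1.29. Without MT replicate 2 the Stac difference was 1.11 (adjusted p = 0.0689), and without ML replicate 2 the Ltbp1 difference was 0.79 (adjusted p = 0.236), and the Ltbp1 call was also lost without MT replicate 2.

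Interferon-stimulated genes were less open with TNF than with CpG at many regions. None of their 162 regions was higher in MT than in MC and 88 (54.3%) were lower, with a median difference of -0.65. Of all regions, 4.36% were higher and 9.45% lower, with a median of -0.02. Against ML, none was higher and 20 (12.3%) were lower, with a median of -0.27. Of all regions, 1.23% were higher than in ML and 3.13% lower, with a median of -0.01. Cytokine genes had 24 of 104 regions (23.1%) lower in MT than in ML and none higher (median -0.34). Inflammatory effectors had 31 of 113 (27.4%) lower and 1 higher (median -0.34). NF-kB inhibitors had 20 of 164 (12.2%) lower and none higher (median -0.29). Osteoclast differentiation genes had 4 of 92 lower (4.35%) and 2 higher (2.17%), near the shares of all regions, with a median of 0.00.

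**Figure D4:**
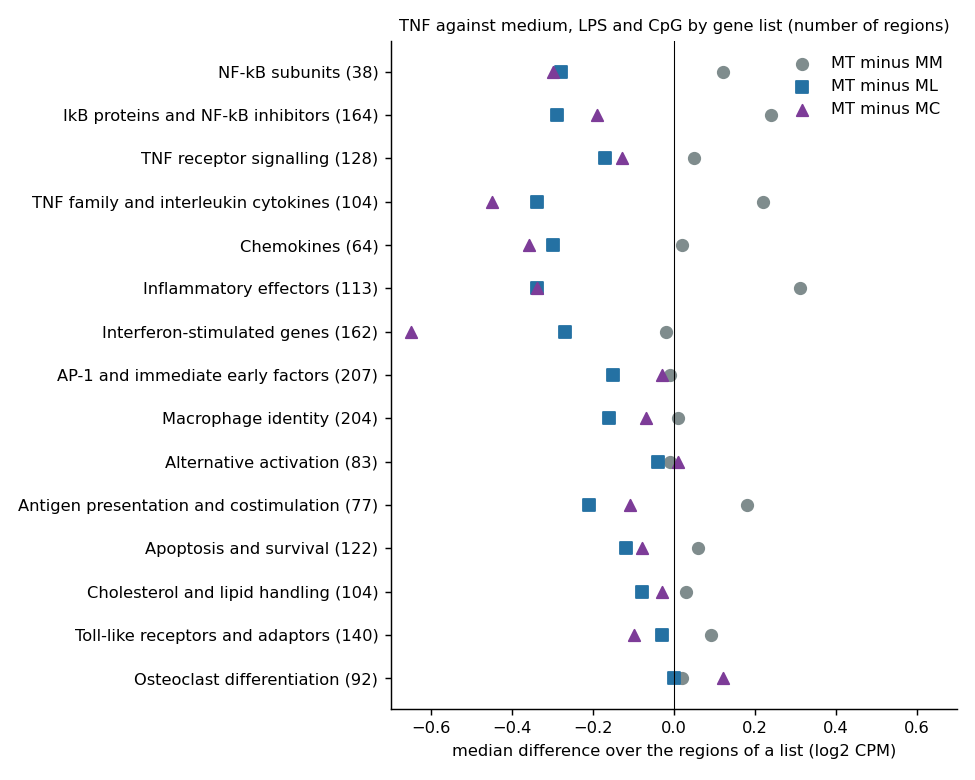
Median difference over the regions of each gene list (horizontal axis, log2 CPM; number of regions in parentheses) for MT minus ML (squares), MT minus MC (triangles) and MT minus MM (circles). The 3 differences share the MT libraries, and the interferon-stimulated genes lie farthest to the left, at -0.65 against CpG.

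Within single loci the regions behaved differently. The 4 loci described here were chosen after their values were seen. Acod1 had 22 regions, of which 5 rose with TNF. The promoter reached a mean of 4.65 in MT, 5.28 in ML, 5.29 in MC and 2.52 in MM. Upstream regions at 31.0 kb and 17.7 kb rose by 1.11 ± 0.18 and 1.35 ± 0.21 (adjusted p = 5.62e-05 and 1.87e-05) and were not called different from ML. Over much of the gene body and just past its end the TNF libraries stayed low. At 11.1 kb past the start (chr14:103057817-103058318), values were 0.70 and 0.90 in MT, 3.54 and 3.63 in ML, 4.13 and 3.97 in MC and 0.19 and 0.64 in MM. MT was lower there than ML by -2.79 ± 0.24 (adjusted p = 8.94e-10) and was not called different from MM (0.38 ± 0.24, adjusted p = 0.449). In all, 11 of the 22 regions were lower in MT than in ML, none was higher, and 12 were lower and 1 was higher in MT than in MC. Rises over MM at 6.8 kb and 11.7 kb (1.01 and 0.82) each lost their call in 3 of the 4 fits without 1 library, down to 0.83 (adjusted p = 0.26) and 0.70 (adjusted p = 0.142).

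At Nfkbia, neighbouring regions 4.6, 5.3 and 6.1 kb past the start, beyond the gene's end, rose by 1.59, 1.62 and 1.63 (adjusted p = 7.47e-07, 3.17e-06 and 2.11e-04). A region 24.9 kb past the start (chr12:55467527-55468028) had 0.97 and 0.69 in MT, 3.00 and 2.66 in ML, 3.74 and 4.33 in MC and 0.58 and 0.31 in MM. It was lower in MT than in ML by -2.0 ± 0.26 (adjusted p = 3.29e-06). Farther on, at 27.6 kb, a region had 3.43 and 2.88 in MT, 3.63 and 3.33 in ML, 3.45 and 3.86 in MC and 1.84 and 1.49 in MM. That region rose by 1.49 ± 0.24 over MM (adjusted p = 4.78e-05) and was not called different from ML. Tnip1 had 5 of 8 regions higher than in MM. One of them, 26.7 kb past the start, was higher than in MM by 0.52 (adjusted p = 0.0384), a call lost in 8 alternatives. It had 4.31 and 4.50 in MT and 5.61 and 5.46 in ML (MT minus ML -1.13, adjusted p = 1.27e-05). Tnfaip3 had 5 of 14 regions higher than in MM, among them one 30.8 kb upstream that rose by 1.67 ± 0.30 (adjusted p = 2.13e-04).

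**Figure D5:**
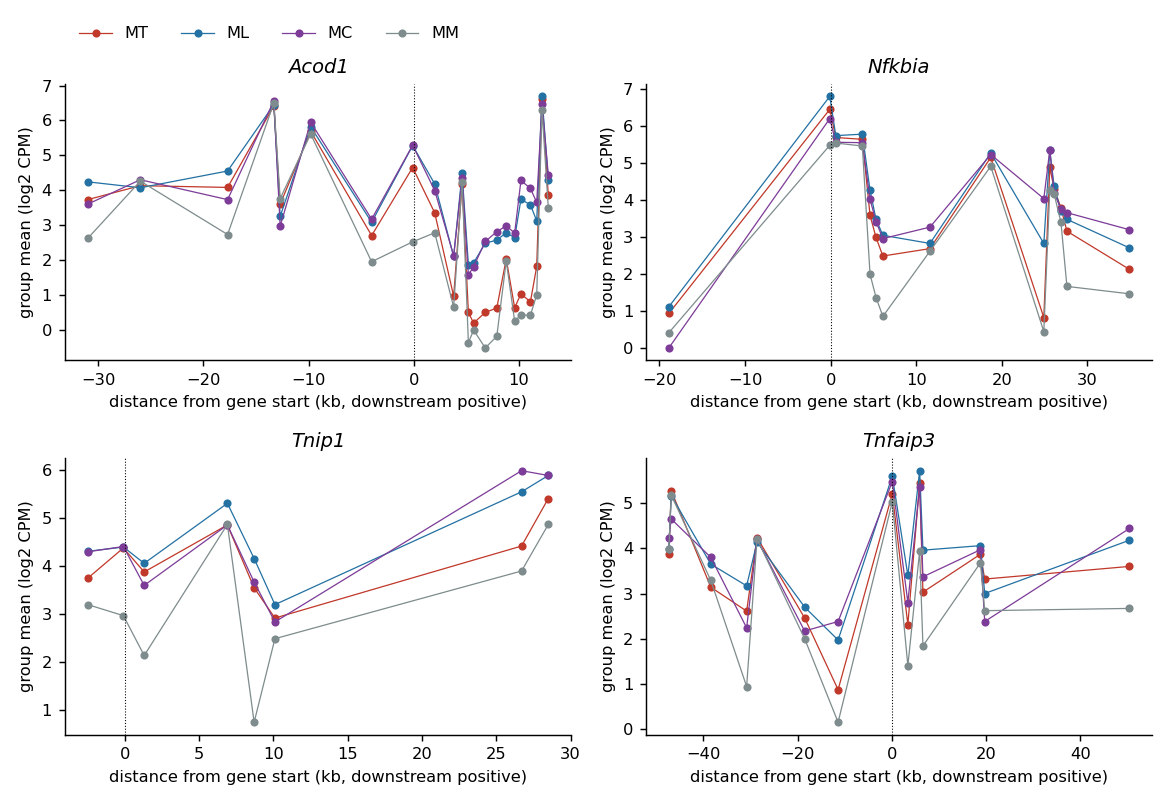
Mean accessibility (log2 CPM, vertical axis) of the 4 groups MT, ML, MC and MM, 2 libraries each, at every region assigned to Acod1, Nfkbia, Tnip1 and Tnfaip3, against distance from the outermost gene start (kb, horizontal axis; lines only join regions of a group). At Acod1 the MT line lies above MM at the start and at 31.0 and 17.7 kb upstream, and it lies nearer to MM than to ML from 5.2 kb to 11.1 kb past it.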

How the data were processed

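ATAC-seq libraries of wild-type mouse bone marrow-derived macrophages were used. The authors deposited log2 CPM values, that is log2 read counts scaled to library size, for 53796 regions in 18 libraries on mm10. The submitters' processing notes name featureCounts, MACS3 3.0.0b1, Picard, SAMtools 1.9 and Bowtie2 2.2.5; their settings are not given in the sources used here. The values came out as whole reads in every case, within 0.01 of a read, with a mean prior of 3 reads, and library totals in regions were 3141641 to 5986835.

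Group means were fitted with limma 3.58.1 in R 4.3.3, with a trended variance and Benjamini-Hochberg adjustment over all regions, on 8 groups (16 libraries); a region was called at an adjusted p under 0.05. The group given medium and then polyI:C was left out, because its pair of libraries agreed within sampling noise (chi-square per region 1.004, p = 0.2629 by the chi-square test of all region counts) and may be 1 library. Chi-square per region was little higher in ML (1.069) and MM (1.08), and it was 1.258 in MC and 1.371 in MT. It was largest, at 2.713, in the group given polyI:C and then TNF. Residual degrees of freedom were 8 and the median SE of a difference was 0.208. The TNF comparison was also tested on simulated data over 53796 regions. The share recovered was 8% for log2 changes of 0.5, 60% for 1, 98% for 2 and 100% for 3, and 9 other regions were called. That test changed 50 regions per size and gave all groups the same spread and, apart from the changes, the same means. In the data 3421 regions were called and the spread differed between groups, so these shares need not hold there.

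Regions were assigned to the nearest protein-coding gene within 50 kb in a RefSeq gene table, 48840 regions to 13771 genes. The gene lists (21 lists, 396 genes) and members were chosen with earlier results of these data known. Named regions are the 10 largest rises and falls with non-overlapping groups and a higher mean of at least 1 log2 CPM, up to 4 called regions per list by smallest p, the regions of 32 genes with the smallest p and nearest a gene end, the 10 genes with the most called regions and, against LPS and CpG, the 5 largest differences each way. Some regions that this rule names are not reported here. Regions named outside this rule were chosen after their values were seen. Region sequences were not analysed here, and promoter sequences came from RefSeq (GRCm38.p6). Alternatives tried were quantile normalization, a shift to one median, a filter at the 25th percentile, log2(CPM + 1), no variance trend, robust variances, all 9 groups, only the compared groups, the fit without the 2 libraries given polyI:C and then TNF, a replicate block, voom on the recovered reads and leaving out each library.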

Additional observations from a re-analysis of the deposited data

How the results depend on the processing

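None of the named differences changed direction under any alternative tried: of 127 named differences between MT and MM, 89 kept their call in every one, as did 34 of 72 against ML and 56 of 94 against MC. The counts moved more. For MT against MM, quantile normalization gave 1687 higher and 112 lower regions, voom on the recovered reads 2280 higher and 435 lower, the fit of only the compared groups 706 lower, the fit without the polyI:C then TNF libraries 677 lower, and leaving out 1 library 1923 to 2394 higher and 74 to 180 lower. For MT against ML, quantile normalization gave 419 higher and 1096 lower, no variance trend 284 higher, voom on the recovered reads 1024 higher, the filter at the 25th percentile 1119 lower, the fit of only the compared groups 2728 higher and 3974 lower, the fit without the polyI:C then TNF libraries 1920 higher and 3380 lower, and leaving out 1 library 34 to 374 higher and 505 to 1268 lower. For MT against MC, the filter gave 3020 lower, for which fewer regions were tested (40347), and leaving out 1 library gave 1037 to 1160 higher and 3004 to 3428 lower. The cause of the other shifts was not tested. Of 42 list counts, 6 stayed within 1.5 times in every alternative.

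Deviations of same-numbered libraries correlated between -0.358 and 0.242 over 28 pairs of groups, 5 of them above 0.1. The labels do not say whether the replicate numbers pair the samples. These correlations cannot decide it, because libraries of the same mouse or culture may carry different numbers. With a replicate block the counts were 3044 higher and 294 lower against MM, 594 and 1620 against ML, and 2266 and 5007 against MC. At this depth and with 2 libraries per group, log2 changes of 0.5 were recovered in 8% of simulated cases. The simulation changed far fewer regions than were called in the data, so the recovered share may differ there. The separate parts of depth and replicate number in the recovered share were not tested.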
